A study of Mus musculus with 16 samples.

Results

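Glycolysis is represented here by 10 genes: the glucose transporters Slc2a1 and Slc2a3, and the enzymes Hk2, Aldoa, Gapdh, Pgk1, Eno1, Eno3, Pkm and Ldha. They were listed by name, with no cut on a measured value but with earlier results of these data known. All 10 were found among the 49585 genes counted. The study measured RNA in regulatory T cells (Treg) and conventional CD4-positive T cells (CD4conv) of BALB/c-background mice that carry the Foxp3-IRES-GFP reporter, in which cells that make Foxp3 fluoresce green. All 4 groups share this reporter, and no other allele or agent is given in the labels. CD4conv were sorted as CD4+Foxp3- cells from the uterus of non-pregnant mice. Lymph node Treg were CD4+Foxp3+CD25+ cells from the para-aortic lymph nodes of non-pregnant mice, and uterine Treg were CD4+Foxp3+CD25- cells from the uterus of non-pregnant mice. Pregnant uterine Treg carried that same CD25- label and came from the uterus at days 6 to 8 of pregnancy, although the titles of 3 of the 4 samples end at day 9, 10 or 11. Mouse age is not given in the sources used here. Each group has 4 libraries, each from a pool of 20 mice where not pregnant and 3 to 8 mice where pregnant. The p-values therefore measure the spread between pools. Tissue and CD25 label differ together between lymph node and uterine Treg and cannot be told apart. Pregnancy and mice per pool differ together wherever pregnant uterine Treg are compared, and against CD4conv the Foxp3 label differs as well. These cannot be told apart either.

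Glycolysis splits glucose into pyruvate and yields ATP and NADH along the way. Transporters bring glucose in, hexokinase traps it by phosphorylation, and the enzymes from aldolase to pyruvate kinase carry out the cleavage and the ATP-forming steps. Lactate dehydrogenase turns pyruvate into lactate and regenerates NAD+. Activated conventional T cells are known for raising this pathway, under factors that include Myc and hypoxia-inducible factor (HIF), while Treg are often described as relying more on oxidative metabolism.

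Promoters were available from RefSeq (build GRCm38.p6) for 9 of the 10 genes, with Slc2a3 missing. The 4 windows printed are the 250 bases before a start site. Eno1 and Eno3 are shown because these paralogous enolases had different patterns across the groups, and Ldha and Pgk1 because they are textbook targets of HIF. Capitals mark the HIF core motifs ACGTG and GCGTG on either strand, so that CACGT and CACGC are their reverse strands. The E-box CACGTG contains ACGTG on both strands and counts as 2 core matches.
Ldha, chr7:46845554-46845803, plus strand: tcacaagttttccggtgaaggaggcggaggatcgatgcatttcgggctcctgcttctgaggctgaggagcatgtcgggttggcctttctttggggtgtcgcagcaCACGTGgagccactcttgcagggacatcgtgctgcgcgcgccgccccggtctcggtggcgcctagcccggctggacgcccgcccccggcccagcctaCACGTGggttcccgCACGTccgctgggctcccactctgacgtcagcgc
Pgk1, chrX:106186850-106187099, plus strand: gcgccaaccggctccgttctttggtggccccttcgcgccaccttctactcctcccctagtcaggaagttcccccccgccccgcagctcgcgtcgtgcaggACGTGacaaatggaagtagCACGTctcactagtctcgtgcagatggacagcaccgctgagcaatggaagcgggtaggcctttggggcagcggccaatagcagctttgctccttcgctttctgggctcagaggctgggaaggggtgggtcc
Eno1, chr4:150236458-150236707, plus strand: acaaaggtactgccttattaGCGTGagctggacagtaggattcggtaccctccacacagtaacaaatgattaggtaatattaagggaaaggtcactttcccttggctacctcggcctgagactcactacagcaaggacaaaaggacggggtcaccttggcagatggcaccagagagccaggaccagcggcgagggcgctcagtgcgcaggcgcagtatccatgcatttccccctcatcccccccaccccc
Eno3, chr11:70656926-70657175, plus strand: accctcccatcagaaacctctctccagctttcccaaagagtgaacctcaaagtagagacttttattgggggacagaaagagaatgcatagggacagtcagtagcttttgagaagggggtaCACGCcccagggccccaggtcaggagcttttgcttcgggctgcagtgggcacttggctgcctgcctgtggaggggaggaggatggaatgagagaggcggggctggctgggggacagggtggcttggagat
The Ldha window held 5 core matches, 4 of them in 2 E-boxes, and the Pgk1 window held 2. The Eno1 and Eno3 windows each held 1, of the form GCGTG. Ldha has another window with 1 match and Eno1 another 2 windows with 2 matches each, while Pgk1 and Eno3 have no other window in the table, so the windows printed do not rank these genes. Over all 15 windows of the 9 genes, 13 held ACGTG or GCGTG, against 38.6% of 32851 promoter windows of the same length. The 15 are not separate, since overlapping windows of Aldoa and of Eno1 hold the same matches. Several windows also overlap exons of their gene. ACGTG alone was in 16.6% of all windows, GCGTG in 28.2%, CACGTG in 6.02% and the GC box GGGCGG in 32.7%. These matches are a description of letters, and binding was not measured.

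Libraries held between 1718558 and 15190212 counts. Reads on genes that T cells do not use, estimated from 1427 olfactory and vomeronasal receptor genes, would make up 8.69% to 53.6% of a library if spread evenly over exons. The estimate was above 30% in pregnant uterine Treg 2 and 4, uterine Treg 3 and 5, and lymph node Treg 3. For that reason each test is given over 2 sets of genes, the 30096 genes that passed the count filter and the 4711 protein-coding genes whose level per exonic base was over 5 times that background. The summed level of 9 T cell markers was 1804 to 4283 CPM (counts per 1000000 counts of a library) in CD4conv. It was 4371 to 6156 CPM in lymph node Treg, 2329 to 7085 in uterine Treg and 1470 to 6352 in pregnant uterine Treg. Foxp3 averaged 1.85 ± 1.52 CPM (SD, n = 4) in CD4conv and 417 to 559 CPM in the Treg groups. The sum of 5 Treg markers was 150.1 to 362 CPM in CD4conv and 1019 to 4067 CPM in the Treg libraries. Markers of macrophages and dendritic cells, 15 genes, summed to 1744 to 23785 CPM in CD4conv and 120.1 to 1330 CPM in the Treg groups, and none of the 15 was at 0 in all libraries of any group. Plasmacytoid dendritic cell markers, 7 genes, summed to 1985 to 4672 CPM in CD4conv and 81.4 to 534 CPM in the Treg groups. Of these 7, Cox6a2 was at 0 in all 4 uterine Treg libraries. Markers of natural killer (NK) cells, 10 genes, summed to 437 to 1751 CPM in CD4conv and 29.7 to 213 CPM in the Treg groups. CD4conv and pregnant uterine Treg were sequenced in batch 1 and the remaining groups in batch 2, so uterine Treg against lymph node Treg and pregnant uterine Treg against CD4conv each lie within a batch. In the other 4 comparisons batch and group cannot be told apart.

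The 10 genes spanned a wide range of levels. Compared per kilobase of exon (CPM per kb, mean of 16 libraries), Ldha was highest at 197, followed by Pkm at 103, Aldoa at 86.1, Eno1 at 66.9 and Pgk1 at 34.1. The transporters Slc2a1 and Slc2a3 followed at 24.2 and 18.3 CPM per kb. Eno3 at 14.2, Gapdh at 6.10 and Hk2 at 3.13 CPM per kb were lowest. Ldha exceeded Pkm in 16 of 16 libraries and Eno1 exceeded Pgk1 in 16 of 16. Pkm exceeded Aldoa in 10, Slc2a3 exceeded Eno3 in 11 and Eno3 exceeded Gapdh in only 7. The neighbours in these last pairs were not ordered beyond the spread between libraries. The mean of Eno3 joins 45.9 CPM per kb in lymph node Treg with 2.10 to 6.39 CPM per kb in the other groups. Hk2 stood at 1.74 times the estimated background and Gapdh at 3.38 times, both under the 5-fold minimum, so 8 of the 10 genes entered the test above background. Eno3 at 7.88 times was the member closest above that minimum, and it passed only through lymph node Treg. It stood at 25.1 times the expected background there, 5.10 times in CD4conv, 1.07 times in uterine Treg and 1.13 times in pregnant uterine Treg, and at 2.03 times over the 12 libraries without lymph node Treg.

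**Figure D1:**
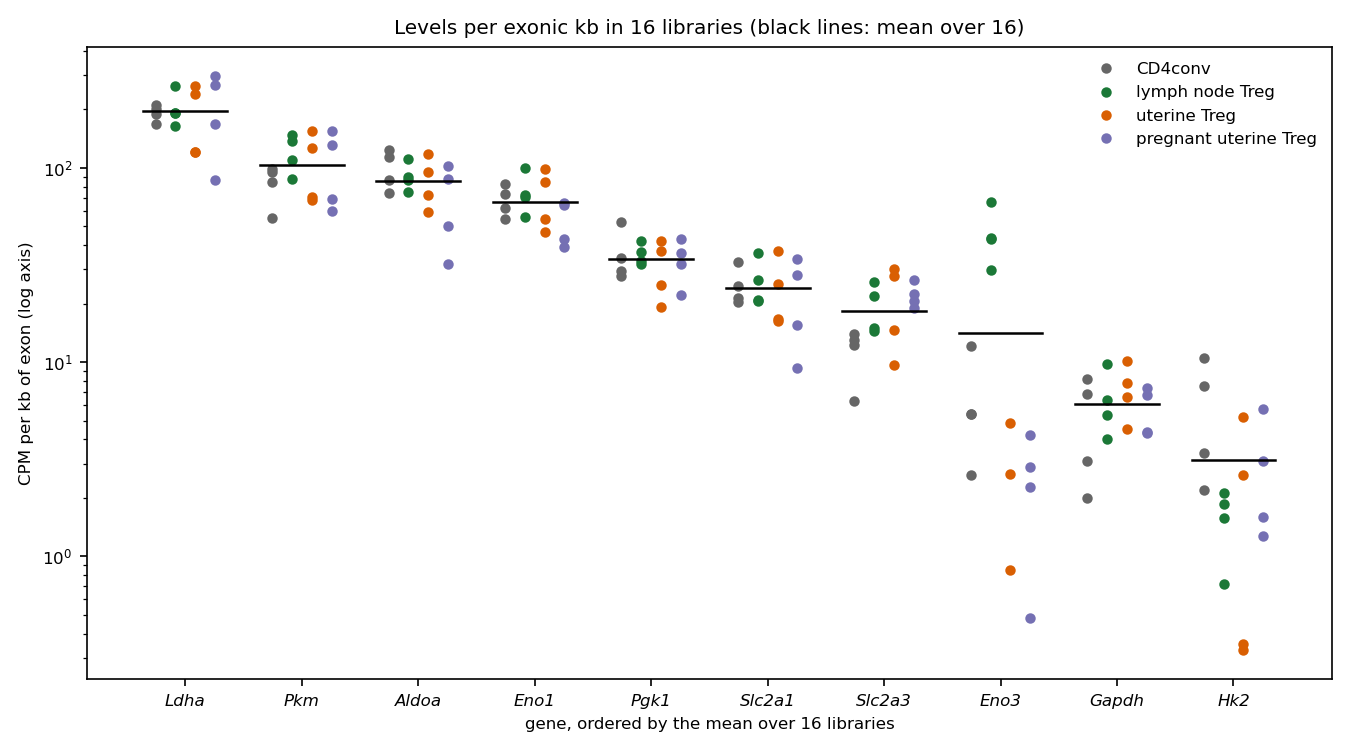
Level of each gene in CPM per kb of exon (log axis) in each of 16 libraries, coloured by group, with the mean over 16 as a black line; the 1 library in which Eno3 had no count is not drawn. Ldha lies highest at a mean of 197, and Eno3 is split between the lymph node Treg libraries and all the others.

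None of the 10 genes passed an adjusted p of 0.05 in the edgeR test over all genes, in any of the 6 comparisons. The shares of all tested genes that passed there were 0% for uterine Treg against lymph node Treg, 0.432% for pregnant uterine Treg against CD4conv, 0.518% for uterine Treg against CD4conv, 0% for pregnant against non-pregnant uterine Treg, 0% for pregnant uterine Treg against lymph node Treg and 0.665% for CD4conv against lymph node Treg. At an unadjusted p under 0.05 the counts, in the same order, were 1, 2, 2, 0, 1 and 2, and the genes were always Eno3 or Hk2. Among genes above background the edgeR test called 1 of 8 genes for uterine against lymph node Treg (Eno3), where 1.29% of all genes were called. Since Eno3 entered that set through the lymph node Treg libraries themselves, its calls against them in that set are a description and no support for a difference. It called 1 of 8 for pregnant uterine Treg against CD4conv (Slc2a3), where 8.45% were called. It called 1 of 8 for pregnant uterine Treg against lymph node Treg (Eno3), with 2.36% called, and 1 of 8 for CD4conv against lymph node Treg (Eno3), with 7.66% called. It called 0 of 8 for uterine Treg against CD4conv (6.2% of all genes called, Slc2a3 at an unadjusted p under 0.05) and 0 of 8 for pregnant against non-pregnant uterine Treg (0% called, no gene at an unadjusted p under 0.05). DESeq2 over all genes called Eno3 in both uterine groups against lymph node Treg, where 0.0901% and 0.102% of genes with an adjusted p were called, and no other member in any comparison. Over all genes the median of the 10 lay between -0.33 and 0.11, against -0.06 to 0.11 for every gene tested. Slc2a3 and Eno3 thus hold every call with all 16 libraries, and the levels of the remaining members follow by role.

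**Figure D2:**
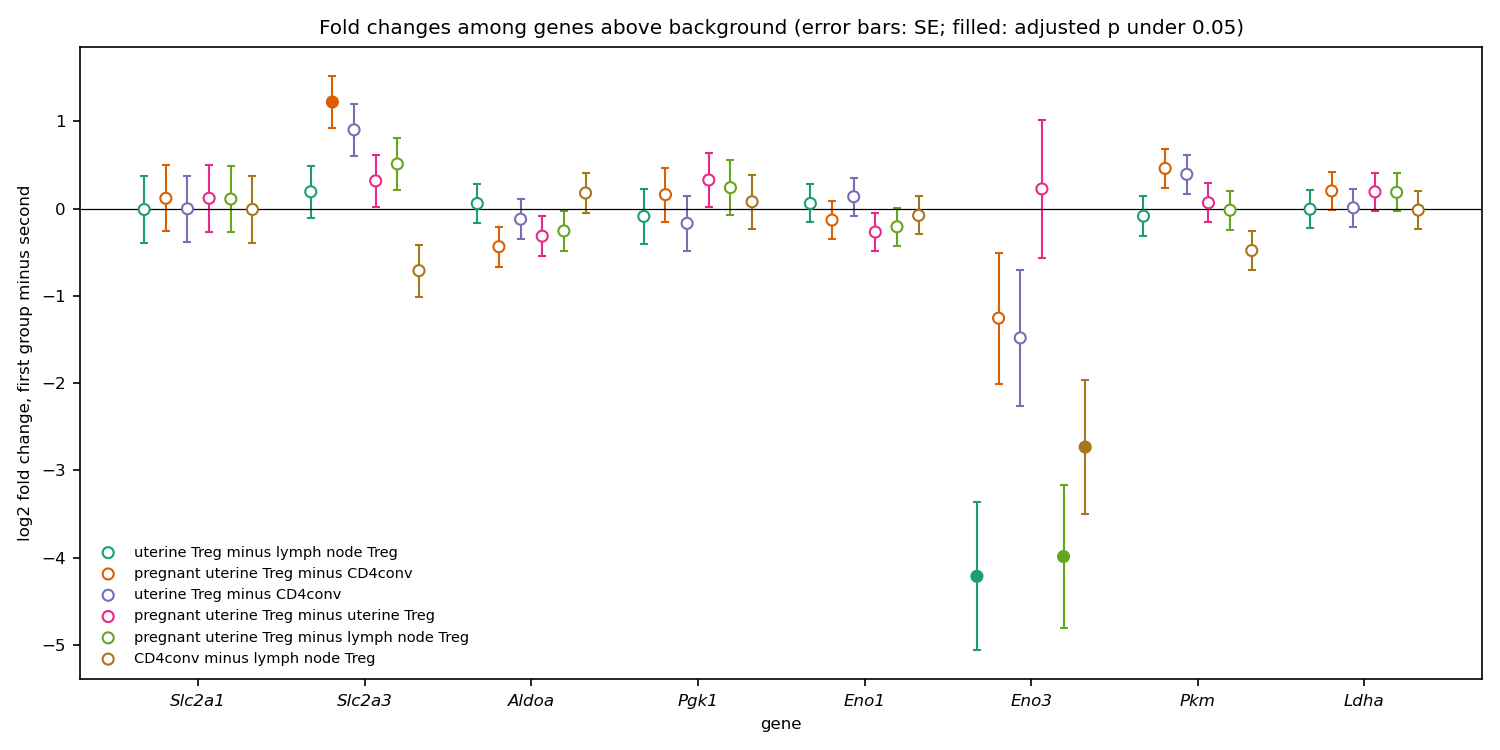
Log2 fold change (first group minus second) of the 8 genes above background in 6 comparisons, with SE as error bars; filled points have an adjusted p under 0.05. Eno3 lies between -2.73 and -4.21 in the 3 comparisons with lymph node Treg, the group through which it passed the filter, and Slc2a3 reaches 1.22 in pregnant uterine Treg against CD4conv.

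The transporters came first in the pathway. Slc2a1 (build GRCm38, as for all genes here, chromosome 4, 119108711 to 119137983) encodes GLUT1, the transporter that activated T cells bring to their surface. Levels in CD4conv were 75.4, 71.3, 115 and 86.1 CPM. Lymph node Treg had 73.2, 92.9, 72.7 and 128 CPM, uterine Treg had 88.8, 131, 58.6 and 56.9 CPM and their pregnant counterparts had 119, 32.6, 54.3 and 98.8 CPM. The 4 groups overlapped in full, and the widest log2 fold change of Slc2a1 in the 6 comparisons was 0.12 in size above background and 0.32 over all genes, with SEs of up to 0.38 and 0.57. Its sign differed between those fits in 4 of the 6 comparisons, so no direction was drawn. Its locus overlaps other annotated transcripts, one of them antisense, and the kits used do not mark strand, so those reads cannot be told apart. The same holds for an antisense transcript at Hk2.

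Slc2a3 (chromosome 6, 122727809 to 122801640) encodes GLUT3, a high-affinity transporter known from neurons and lymphocytes. Above background, edgeR called Slc2a3 lower in CD4conv than in pregnant uterine Treg, where 8.45% of all genes were called. That call was lost in several of the alternative fits given below. The level of Slc2a3 was 88.5, 45.8, 101 and 93.8 CPM in CD4conv, a mean of 82.4 ± 24.9 (SD, n = 4). In pregnant uterine Treg it was 163, 149, 193 and 138 CPM, a mean of 161 ± 23.7 (SD, n = 4), and each of these libraries lay above every CD4conv library. The log2 fold change, pregnant uterine Treg minus CD4conv, was 1.22 ± 0.30 (SE) among genes above background (adjusted p = 0.0174, edgeR) and 0.90 ± 0.55 over all genes (adjusted p = 1.00, edgeR). Both groups are from batch 1. The labels do not pair their samples, and same-numbered libraries deviated together only weakly (correlations of 0.107 to 0.119). A block by replicate number is therefore only an alternative fit. With the replicate number as a block the value above background was 1.00 ± 0.34 and no longer passed (adjusted p = 0.0907, edgeR). It passed in 15 of the 16 fits that leave out 1 library, and missed the threshold without CD4conv replicate 2, the lowest (adjusted p = 0.0530, edgeR). It also missed it without the 5 libraries of highest background (0.98 ± 0.31, adjusted p = 0.0955, edgeR). That fit keeps only replicates 1 and 3 of pregnant uterine Treg. With only pregnant uterine Treg and CD4conv in the fit, the difference missed the threshold as well (1.18 ± 0.30, adjusted p = 0.0641, edgeR). DESeq2 called it above background (1.21 ± 0.32, adjusted p = 0.00313) but not over all genes (0.93 ± 0.50, adjusted p = 0.672).

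The non-pregnant Treg groups had means between these. Slc2a3 was 108, 186, 105 and 158 CPM in lymph node Treg, a mean of 139 ± 39.6 (SD, n = 4), all 4 above the CD4conv libraries. In uterine Treg it was 218, 202, 107 and 69.8 CPM, a mean of 149 ± 72.2 (SD, n = 4), with replicate 5 inside the CD4conv range. Against CD4conv, uterine Treg differed by 0.90 ± 0.30 on the log2 scale above background, which did not pass (adjusted p = 0.0870, edgeR). CD4conv minus lymph node Treg was -0.71 ± 0.30 (adjusted p = 0.217, edgeR). Pregnant and non-pregnant uterine Treg were not distinguished by Slc2a3 (adjusted p = 0.878, edgeR). Without the 5 libraries of highest background, which takes out uterine Treg 3 and 5, the difference of uterine Treg from CD4conv was 1.23 ± 0.31 above background (adjusted p = 0.0374, edgeR, with 6.12% of all genes called) and 1.41 ± 0.32 over all genes (adjusted p = 0.0346, edgeR, with 1.29% called). In CD4conv the macrophage and dendritic cell marker sum was 5276, 17867, 23785 and 1744 CPM in replicates 1, 2, 3 and 5. Slc2a3 did not follow these sums within CD4conv, at 101 CPM in the library with the highest sum, 45.8 CPM in the next and 93.8 CPM in the lowest. The part of such cells in the Slc2a3 difference was not tested. In bulk libraries, fewer cells with an RNA and less of it per cell cannot be told apart.

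Set against each other per kilobase, Slc2a3 made up 23.7% to 36.2% of the 2 transporters' summed level in CD4conv. The share was 37.4% to 49.2% in lymph node Treg, 37.2% to 54.3% in uterine Treg and 39.8% to 68.8% in pregnant uterine Treg. Every Treg library thus had a larger Slc2a3 share than every CD4conv library, although Slc2a1 itself overlapped between all groups. No test was run on this share. Enolase 3, described further on, also shifted within its family, in a different group.

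**Figure D3:**
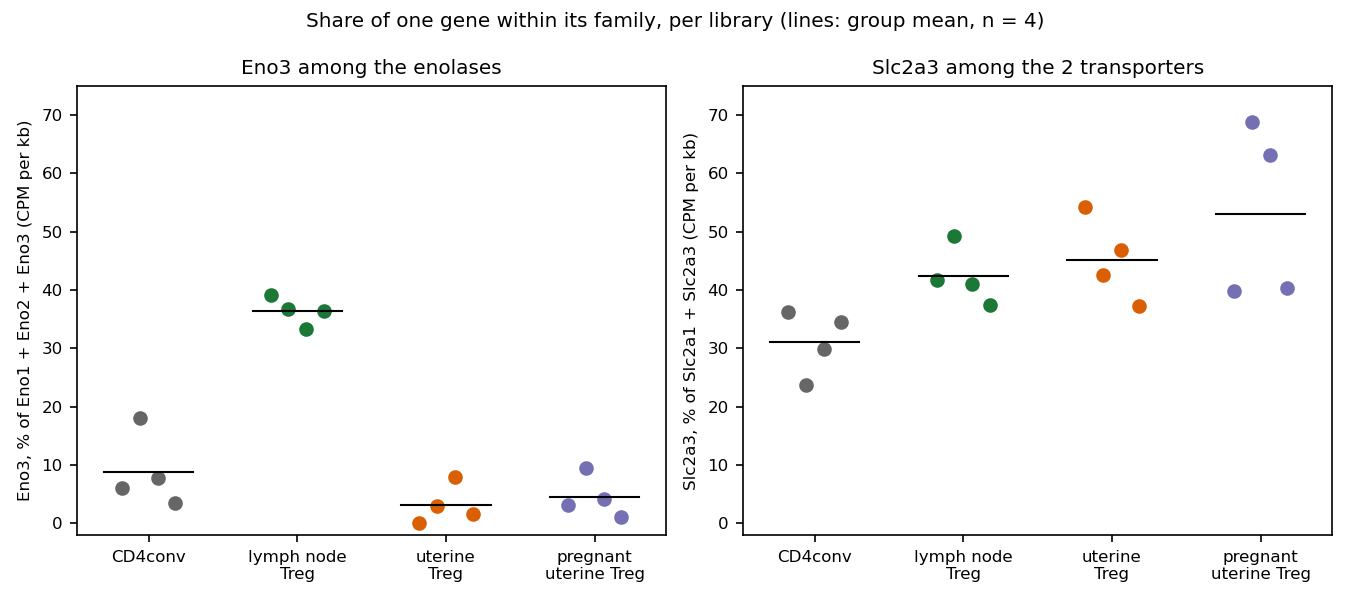
Left, Eno3 as a percent of Eno1, Eno2 and Eno3 summed in CPM per kb; right, Slc2a3 as a percent of Slc2a1 and Slc2a3; points are libraries (4 per group) and lines are group means. Lymph node Treg stand apart on the left at 33.3% to 39.2%, and CD4conv are lowest on the right at 23.7% to 36.2%.

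Hk2 (chromosome 6, 82725025 to 82774454) encodes hexokinase 2, the inducible hexokinase that phosphorylates glucose after entry. Its level was 20.3, 62.6, 45.2 and 13.2 CPM in CD4conv and 9.37, 4.29, 11.1 and 12.6 CPM in lymph node Treg. In uterine Treg it was 2.12, 1.96, 15.7 and 31.2 CPM, and in pregnant uterine Treg 9.57, 34.1, 7.57 and 18.5 CPM. CD4conv replicates 2 and 3 were highest, and the uterine groups overlapped CD4conv while lymph node Treg did not. Hk2 lay below the level expected from background reads in 6 of 16 libraries, so its low values carry little signal. Over all genes the log2 fold change was 2.20 ± 0.76 for CD4conv minus lymph node Treg (adjusted p = 0.440, edgeR), -2.31 ± 0.77 for uterine Treg minus CD4conv (adjusted p = 0.373, edgeR) and -1.66 ± 0.74 for pregnant uterine Treg minus CD4conv (adjusted p = 0.931, edgeR). None passed with all 16 libraries. Without the 5 libraries of highest background, uterine Treg keep replicates 1 and 2 alone. Uterine Treg minus CD4conv was then -4.26 ± 0.99 (adjusted p = 0.0416, edgeR, with 1.29% of all genes called). These 2 uterine libraries held 6 and 11 counts of Hk2. Both lay below the expected background, at 2.12 against 8.11 CPM and 1.96 against 5.57 CPM. The 2 CD4conv libraries with the most Hk2 were also those with the 2 highest macrophage and dendritic cell marker sums, 17867 and 23785 CPM, and the part of such cells was not tested. Hk1, the constitutive hexokinase, was 12.4 ± 3.67 CPM per kb in CD4conv, 16.9 ± 4.19 in lymph node Treg, 19.6 ± 4.18 in uterine Treg and 15.4 ± 7.03 in pregnant uterine Treg (SD, n = 4), against 5.92 ± 3.82, 1.56 ± 0.607, 2.13 ± 2.32 and 2.92 ± 2.02 CPM per kb for Hk2 in the same order.

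**Figure D4:**
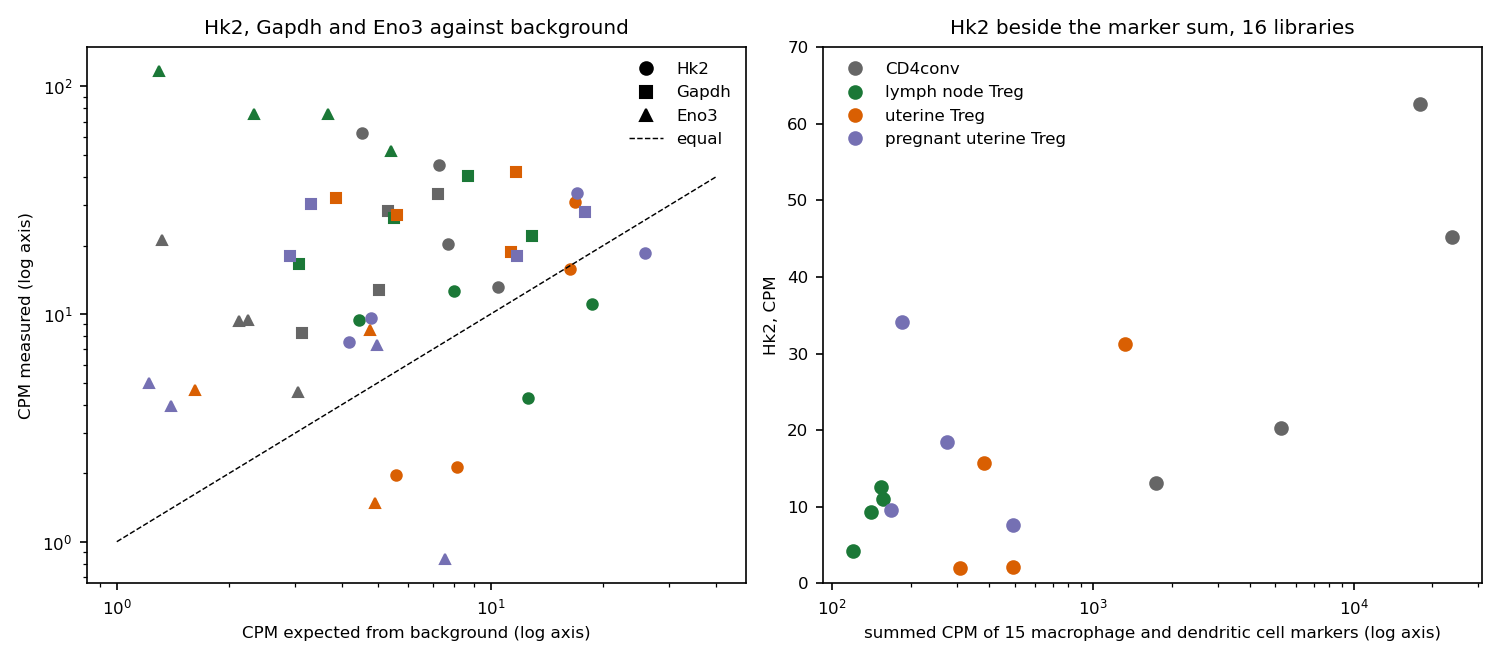
Left, measured CPM of Hk2 (circles), Gapdh (squares) and Eno3 (triangles) against the CPM expected from background reads, both on log axes, with equality dashed; the 1 library in which Eno3 had no count is not drawn. Right, Hk2 CPM against the summed CPM of 15 macrophage and dendritic cell markers (log axis) in 16 libraries; the 2 highest Hk2 values, 62.6 and 45.2 CPM, are CD4conv libraries with sums of 17867 and 23785 CPM.

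Aldoa (chromosome 7, 126795234 to 126800751) encodes aldolase A, which splits the fructose bisphosphate into a pair of triose phosphates. Levels in CD4conv were 332, 216, 358 and 252 CPM. Lymph node Treg had 322, 253, 262 and 219.9 CPM, uterine Treg had 343, 277, 173 and 212 CPM and their pregnant counterparts had 254, 146, 297 and 93.2 CPM. The groups overlapped. The widest difference of Aldoa above background, pregnant uterine Treg minus CD4conv, was -0.44 ± 0.23 (log2, SE) and did not pass (adjusted p = 0.251, edgeR).

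Gapdh (chromosome 6, 125161715 to 125166467), the dehydrogenase that oxidises glyceraldehyde phosphate and a common reference gene, had few counts under its own name. Its level ran from 8.29 to 33.7 CPM in CD4conv, 16.7 to 40.5 CPM in lymph node Treg, 18.7 to 42.1 CPM in uterine Treg and 17.9 to 30.4 CPM in pregnant uterine Treg, with full overlap. The annotation holds 78 genes whose transcripts match Gapdh at 95% identity or more over at least 150 bases, 75 of them pseudogenes, and these summed to 175 to 527 CPM per library. One pseudogene alone, Gm13394, took 23.8 to 168 CPM at 99.9% identity. How reads with several matches were counted is not given in the sources used here, so the level of Gapdh is uncertain and no direction was drawn from it.

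Pgk1 (chromosome X, 106187100 to 106203699) encodes phosphoglycerate kinase, the first ATP-forming step. It was 62.0 to 118 CPM in CD4conv, 71.6 to 94.0 CPM in lymph node Treg, 43.1 to 94.9 CPM in uterine Treg and 49.9 to 97.1 CPM in pregnant uterine Treg. All groups overlapped, and its widest difference above background was 0.33 in size on the log2 scale with an SE of up to 0.31 (lowest adjusted p = 0.747, edgeR). Its coefficient of variation over 16 libraries, 25.1%, was the lowest of the 10 genes, and that of Eno3, 143%, was the highest.

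The enolases, which make phosphoenolpyruvate, gave the widest difference among the 10 genes. Eno3 (chromosome 11, 70657202 to 70662513) encodes beta-enolase, the form best known from skeletal muscle. Its level was 116, 75.8, 51.8 and 75.3 CPM in lymph node Treg, a mean of 79.8 ± 26.8 (SD, n = 4) from 89 to 733 counts per library. In CD4conv it was 9.40, 21.1, 9.35 and 4.56 CPM, a mean of 11.1 ± 7.06 (SD, n = 4). In uterine Treg it was 0, 4.63, 8.49 and 1.48 CPM (mean 3.65 ± 3.76, SD, n = 4), and in pregnant uterine Treg 3.94, 7.31, 5.00 and 0.839 CPM (mean 4.27 ± 2.69, SD, n = 4). Every lymph node Treg library lay above every other library, and the lowest of them, replicate 3, was above the highest CD4conv library. A count of 0 in uterine Treg 1 allows a level of up to 1.06 CPM, counting error only. Eno3 was below the expected background in 3 libraries, all of uterine or pregnant uterine Treg.

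Uterine Treg minus lymph node Treg, the comparison within batch 2, gave a log2 fold change of Eno3 of -4.71 ± 0.95 (SE) over all genes, which edgeR did not call (adjusted p = 0.599) and DESeq2 did (-4.56 ± 0.84, adjusted p = 0.000980). Pregnant uterine Treg minus lymph node Treg was -4.35 ± 0.92 (adjusted p = 0.354, edgeR) and -4.33 ± 0.82 (adjusted p = 0.00125, DESeq2). CD4conv minus lymph node Treg was -2.64 ± 0.85 (adjusted p = 0.310, edgeR) and -2.66 ± 0.81 (adjusted p = 0.0571, DESeq2). The edgeR calls of Eno3 exist only in the set above background, which it entered through the lymph node Treg libraries. There the values were -4.21 ± 0.85 (adjusted p = 0.0190, edgeR), -3.99 ± 0.82 (adjusted p = 0.0130, edgeR) and -2.73 ± 0.77 (adjusted p = 0.0337, edgeR) in the same order. These 3 comparisons share the lymph node Treg libraries. In that set the call for uterine Treg was lost without lymph node Treg 1, lymph node Treg 2 or uterine Treg 2 (highest adjusted p = 0.0605, edgeR), and without the 5 libraries of highest background (-5.18 ± 1.06, adjusted p = 0.0672, edgeR). That for pregnant uterine Treg was lost without lymph node Treg 1 or pregnant uterine Treg 1 (highest adjusted p = 0.0502, edgeR), and without those 5 libraries (-4.34 ± 0.99, adjusted p = 0.0780, edgeR). That for CD4conv was lost in 7 of 16 fits that leave out 1 library, without CD4conv 1, 3 or 5 or any lymph node Treg library (highest adjusted p = 0.112, edgeR), but it passed without those 5 libraries (adjusted p = 0.0273, edgeR). The fit without those 5 libraries keeps only replicates 1 and 2 of uterine Treg and 1 and 3 of pregnant uterine Treg. CD4conv and the uterine groups were not distinguished by Eno3 above background, at -1.25 ± 0.75 for pregnant uterine Treg minus CD4conv (adjusted p = 0.314, edgeR) and -1.48 ± 0.78 for uterine Treg minus CD4conv (adjusted p = 0.313, edgeR).

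Skeletal muscle markers (Ckm, Acta1, Myh4, Myh1, Tnnt3, Tnnc2 and Mylpf) summed to 14.3 to 43.6 CPM in lymph node Treg, 11.3 to 95.5 CPM in uterine Treg, 10.9 to 99.9 CPM in pregnant uterine Treg and 20.6 to 63.5 CPM in CD4conv. The lymph node Treg sums lay within the range of the uterine libraries. Of the 7 markers, only 1 (Tnnc2) was at 0 in all 4 lymph node Treg libraries. The part of muscle cells in the Eno3 level was not tested. No near-identical copy of Eno3 was found in the annotation. Eno1 (chromosome 4, 150236721 to 150248879), the enolase of most tissues, had CD4conv levels of 443, 294, 336 and 394 CPM. Lymph node Treg had 537, 382, 302 and 389 CPM, uterine Treg had 531, 457, 293 and 250.4 CPM and their pregnant counterparts had 357, 210.4, 348 and 232 CPM. Eno1 overlapped between all groups, with a widest log2 difference of 0.27 in size above background and an SE of 0.22. Part of the Eno1 reads may be counted under copies, since Eno1b (99.5% identity, 24.3 to 121 CPM) and 2 pseudogenes together held 57.4 to 224 CPM. Eno2, the neuronal enolase, was 17.3 ± 1.48 CPM in lymph node Treg and 4.42 to 9.17 CPM on average in the other groups. Per kilobase, Eno3 was 33.3% to 39.2% of the 3 enolases in lymph node Treg and 0% to 18.1% in the other libraries.

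Pkm (chromosome 9, 59656368 to 59679375) encodes the pyruvate kinase of proliferating cells and muscle, which forms pyruvate and ATP. Levels in CD4conv were 492, 275, 477 and 423 CPM. Lymph node Treg had 690.5, 552, 440.5 and 743 CPM, uterine Treg had 633, 773, 355 and 344 CPM and their pregnant counterparts had 771, 346, 658 and 300.2 CPM. The groups overlapped. The widest difference of Pkm above background, CD4conv minus lymph node Treg, was -0.48 ± 0.23 (adjusted p = 0.304, edgeR), and pregnant uterine Treg minus CD4conv was 0.46 ± 0.23 (adjusted p = 0.216, edgeR).

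Ldha (chromosome 7, 46841475 to 46855627) encodes the lactate dehydrogenase subunit that favours lactate formation, and it was the most abundant of the 10 genes per kilobase. Levels in CD4conv were 699, 557, 629.8 and 663 CPM. Lymph node Treg had 877, 631, 543 and 635 CPM, uterine Treg had 876, 799, 399.9 and 398 CPM and their pregnant counterparts had 882, 560.2, 988 and 287 CPM. The group means differed little against this spread, and the widest log2 difference of Ldha above background was 0.20 in size with an SE of 0.22 (lowest adjusted p = 0.592, edgeR). The lowest 3 values were in uterine Treg 3 and 5 and pregnant uterine Treg 4, which are among the 5 libraries of highest background. The summed level of all 10 genes followed the same libraries: it was 1279 to 1553 CPM in pregnant uterine Treg 2 and 4 and in uterine Treg 3 and 5, and 1670 to 2844 CPM in the other libraries. Taken as a share of counts in genes above background, the sums of those 4 libraries were 2537 to 2882 per 1000000 and those of the others 2443 to 4022, which overlap.

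**Figure D5:**
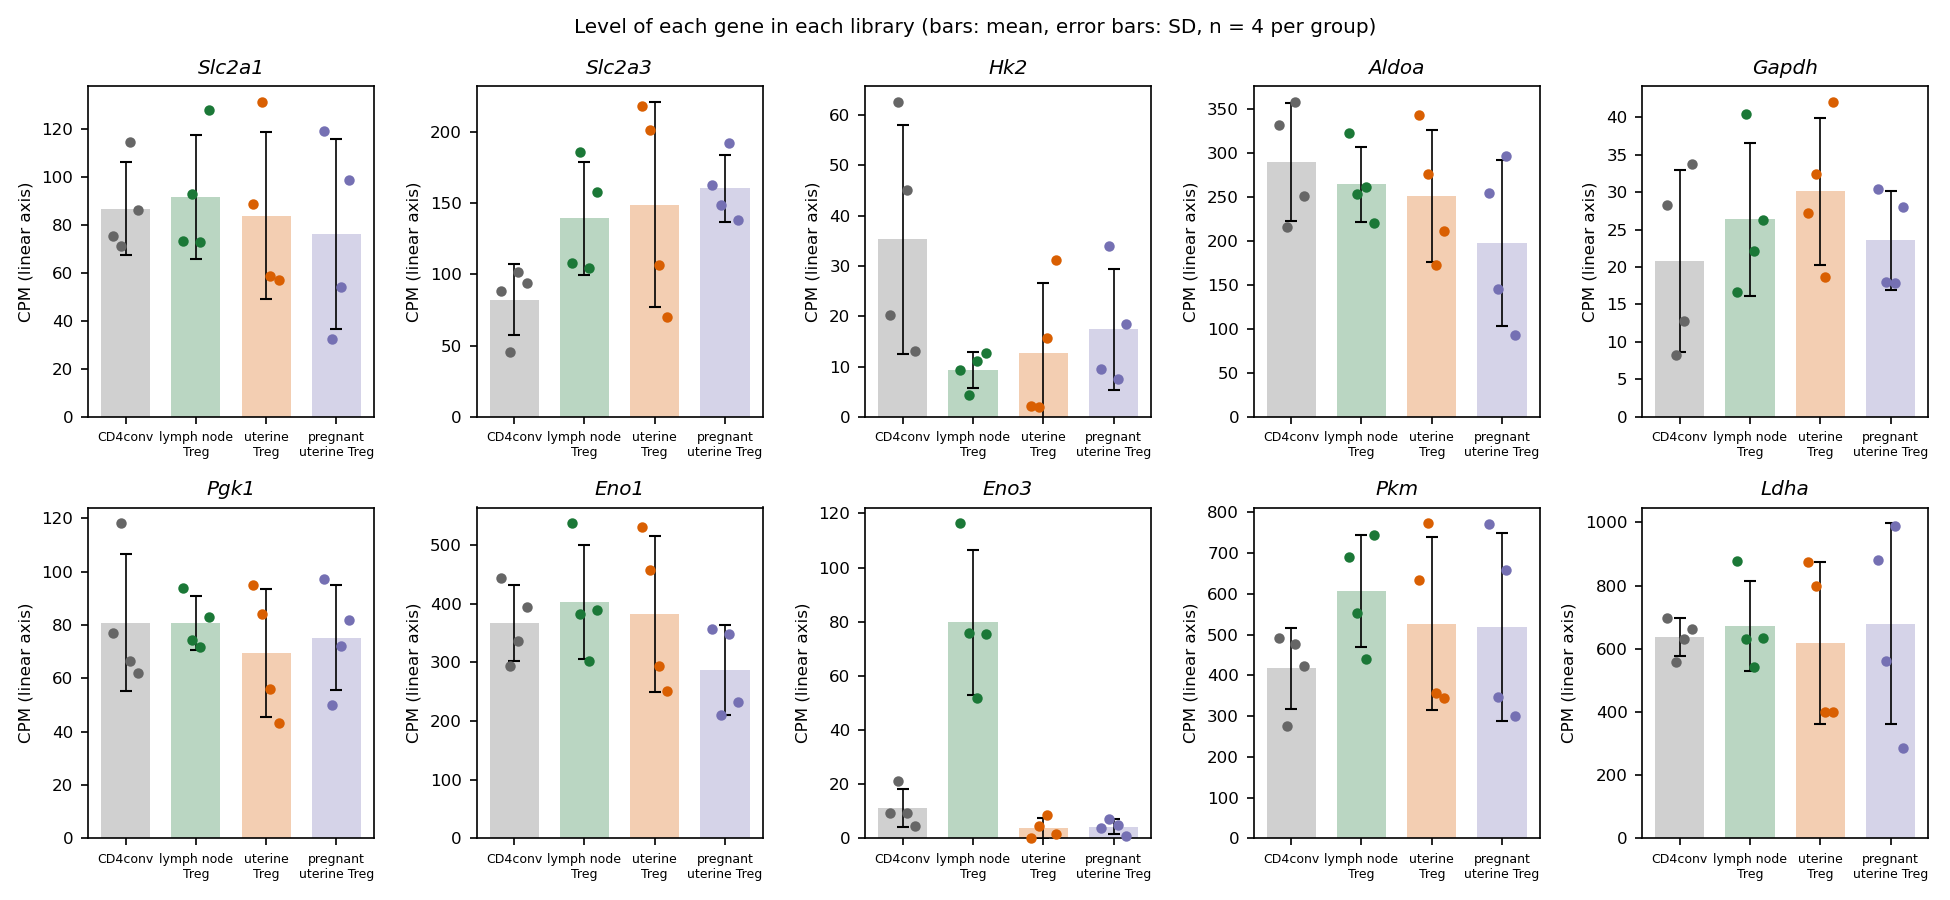
CPM of each gene in each library (points) with group mean (bars) and SD (error bars, n = 4), on linear axes from 0. Eno3 is high in lymph node Treg (51.8 to 116 CPM) and at most 21.1 CPM elsewhere, Slc2a3 is lowest in CD4conv, and Slc2a1, Pgk1, Eno1, Pkm and Ldha overlap between all groups.

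Another 89 genes of glucose metabolism and its control were set beside the 10, in 7 lists: other glycolytic genes, other glucose transporters, lactate and pyruvate handling, the pentose phosphate pathway, gluconeogenesis, regulators, and other hypoxia-response genes. Over all genes, edgeR called 0 of the 89 in each comparison, and 32 were above background, none of them a glucose transporter or a gluconeogenic gene. For pregnant uterine Treg against CD4conv, 3 of the 32 were higher and 2 lower, where 8.45% of all genes above background were called. The higher ones were P4ha1, a collagen prolyl hydroxylase subunit induced in hypoxia (log2 1.47 ± 0.23, adjusted p = 0.000580, edgeR), Egln3, which hydroxylates HIF (1.75 ± 0.46, adjusted p = 0.0242, edgeR), and Tkt, transketolase of the pentose phosphate pathway (1.04 ± 0.27, adjusted p = 0.0240, edgeR). The lower ones were Pgls, the lactonase of the oxidative pentose phosphate branch (-2.04 ± 0.39, adjusted p = 0.00300, edgeR), and Mif, an inflammatory cytokine (-1.12 ± 0.32, adjusted p = 0.0386, edgeR). For uterine Treg against CD4conv, 3 were higher and 1 lower, against 6.2% of all genes. P4ha1 (1.58 ± 0.23, adjusted p = 0.000347), Tkt (1.46 ± 0.28, adjusted p = 0.00271) and Irf4, a transcription factor of activated T cells (1.36 ± 0.34, adjusted p = 0.0209), were higher, and Pgls (-1.70 ± 0.39, adjusted p = 0.0117) was lower (edgeR). Tkt was the 1 gene of the 32 called in uterine against lymph node Treg, and higher (1.17 ± 0.28, adjusted p = 0.0434, edgeR), against 1.29% of all genes. Pregnant uterine Treg had less Mif (-1.47 ± 0.33, adjusted p = 0.0210, edgeR) and less Ldhb, the dehydrogenase subunit that favours pyruvate (-1.70 ± 0.43, adjusted p = 0.0452, edgeR), than lymph node Treg, 2 of the 32 against 2.36% of all genes. CD4conv had more Pgls than lymph node Treg (1.42 ± 0.39, adjusted p = 0.0293, edgeR), 1 of the 32 against 7.66% of all genes, and pregnant and non-pregnant uterine Treg differed in 0 of the 32. Leaving out 1 library at a time, P4ha1 in both comparisons, Tkt in uterine Treg against CD4conv and Pgls in pregnant uterine Treg against CD4conv passed in 16 of 16 fits. Leaving out the 5 libraries of highest background keeps only replicates 1 and 2 of uterine Treg and 1 and 3 of pregnant uterine Treg. In that fit 7 of the 13 calls were lost in edgeR. These were Pgls in pregnant and non-pregnant uterine Treg against CD4conv (adjusted p = 0.0674 and 0.0884) and in CD4conv against lymph node Treg (0.127), Tkt in uterine against lymph node Treg (0.154), Mif in pregnant uterine Treg against CD4conv and against lymph node Treg (0.163 and 0.194), and Ldhb (0.270). With only the 2 groups compared in the fit, Tkt (adjusted p = 0.149), Mif (0.109) and Egln3 (0.0518) in pregnant uterine Treg against CD4conv and Pgls in CD4conv against lymph node Treg (0.0778) were lost in edgeR. With the replicate block, Pgls in CD4conv against lymph node Treg (adjusted p = 0.0503) and Ldhb (0.154) were lost in edgeR. Pgls in uterine Treg against CD4conv was also lost without CD4conv 2 (adjusted p = 0.0589, edgeR). The other calls among the 32 were lost in 3 to 12 of the 16 fits that leave out 1 library, with Tkt against lymph node Treg and Ldhb passing in only 4 each. The marker sums of macrophages, dendritic cells and NK cells were higher in CD4conv, and the part of such cells in the differences from CD4conv was not tested.

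The genes most like the 8 members above background were sought by Pearson's r between their log2 CPM and the mean of the z-scored members over 16 libraries, as a description. The 5 closest were Mrpl10 (r = 0.83), Tpra1 (0.79), Dvl1 (0.79), Mob3a (0.77) and Dus3l (0.75). After the group means were subtracted they were Rnf114 (0.88), Myd88 (0.86), Mrpl10 (0.84), Dus3l (0.83) and Dvl1 (0.83). The members themselves correlated with their own mean at -0.04 (Eno3) to 0.76 (Pkm), so they did not form one pattern. The genes most like Eno3, a target chosen after its values were seen, were Stard5 (0.95), Pmepa1 (0.88), Psmc5 (0.87), Skp1a (0.84) and Lsm6 (0.82). The points share their libraries, depth and background share.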

How the data were processed

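The authors deposited raw read counts per gene for 49585 genes in 16 libraries, in 1 table and 16 single-library files that were identical to it. Per the labels' protocols, cDNA was made with SMART-Seq v4 and libraries with Nextera XT, read in pairs of 150 bp. Per the submitters' processing notes, HISAT2 and featureCounts were used with build GRCm38, besides Trimmomatic, SAMtools and DESeq2. Their versions, options and order are not stated there. Such counts are not corrected for length, and reads that fit several genes may be lost or split.

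Groups came from the labels. CPM is counts per 1000000 counts of a library. Tests used edgeR 4.0.16 in R 4.3.3 (quasi-likelihood, robust, TMM, filterByExpr, 16 libraries, 12 residual degrees of freedom, Benjamini-Hochberg, threshold 0.05), with DESeq2 1.42.0 as an alternative. SE was taken as the size of the log2 fold change over the root of its F statistic. The biological coefficient of variation was 0.812 over all genes and 0.430 above background. Names and coordinates are from GENCODE M21 (49326 genes named), and copies were sought with BLAST+ 2.17.0. The tests were tried on simulated data first.

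Pairing was checked by the correlation of same-numbered libraries' deviations from group means. It was 0.111, 0.119 and 0.107 for pregnant uterine Treg and CD4conv, all above 0.1. In the other comparisons it was mixed in sign, with single values from -0.403 to 0.362. CD4conv, lymph node Treg and uterine Treg libraries are all numbered 1, 2, 3 and 5, and pregnant uterine Treg 1 to 4. Whether equal numbers stand for shared pools is not given. Differently numbered libraries were not compared, and the labels do not pair the samples, so no pairing is established.

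The members and gene lists were chosen with earlier results of these data known. Genes outside the members are named where they passed the threshold at 5 CPM or more, at most 6 per comparison. The fits above background with libraries left out, with a replicate block, with DESeq2 or on 2 groups only were chosen after seeing the data. Genes named outside these rules are so described.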

Additional observations from a re-analysis of the deposited data

How the results depend on the processing

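Over all genes, no member was called in any comparison under RLE size factors, no count filter, only the 2 groups compared, the replicate block or any library left out (0 in each comparison). The count rose to 1 with DESeq2 for uterine and for pregnant uterine Treg against lymph node Treg. It rose to 2 (Hk2 and Slc2a3) for uterine Treg against CD4conv without the 5 libraries of highest background. That fit called 1.29% of all genes. It keeps only replicates 1 and 2 of uterine Treg and 1 and 3 of pregnant uterine Treg. Restricting the fit to genes above background gave 1 for both uterine groups against lymph node Treg, 1 for CD4conv against lymph node Treg and 1 for pregnant uterine Treg against CD4conv. Among genes above background, leaving out 1 library gave 0 to 1 members in each of these 4 comparisons, 0 to 1 for uterine Treg against CD4conv (1 without uterine Treg 5) and 0 for pregnant against non-pregnant uterine Treg. Without the 5 libraries of highest background the count was 0 for both uterine groups against lymph node Treg, 0 for pregnant uterine Treg against CD4conv and 1 for uterine Treg against CD4conv. For pregnant uterine Treg against CD4conv it was also 0 with the replicate block and 0 with only the 2 groups compared. The replicate block changed no other count of members called, and ended 2 calls of other pathway genes. The labels do not say what same-numbered libraries share beyond the number in any comparison. The cause of these shifts was not tested. The signed fold changes printed for Eno3, Slc2a3 and Hk2 kept their sign in every alternative listed for them. Between the fit over all genes and that above background, the sign differed in 4 of 6 comparisons for Slc2a1, 2 for Pgk1, 2 for Eno1, 1 for Aldoa and 1 for Ldha. The median of all genes tested moved from -0.05 to -0.51 for uterine Treg against CD4conv without those 5 libraries, the widest such move, and small member differences are read against it. Background reads limit Hk2, Gapdh and Eno3 most. Hk2 lay below the expected background in 6 libraries, Eno3 in 3 and Gapdh in 0, although Gapdh was under the 5-fold minimum. Near-identical copies limit Gapdh as well.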
